A study of Mus musculus with 20 samples.

Results

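The genes described here are 6 fibroblast growth factor ligands, Fgf3, Fgf4, Fgf5, Fgf8, Fgf10 and Fgf15, and the 4 receptors Fgfr1, Fgfr2, Fgfr3 and Fgfr4. They were taken by name, with earlier results of these data known, and all 10 were found among the 55573 genes of the count table. RNA-seq was made from mouse induced pluripotent stem cells (iPSCs) that were left to differentiate as embryoid bodies, which are aggregates in which stem cells start to form the germ layers. Per the labels, all lines were grown on mouse fibroblast feeder cells with LIF, which was removed at the start. The study describes embryonic fibroblasts reprogrammed with virally delivered Oct4, Sox2, Klf4 and c-Myc as the source of the lines it names, and the origin of WT#20D-17 is not given in the sources used here. The wild type groups are WT#1-4 and WT#20D-17, and the groups lacking the NADPH oxidase gene Nox4 are Nox4-/- #5-8 and Nox4-/- #5-23. Each group is 1 clonal line, sampled once on each of days 0, 3, 5, 7 and 14, so there are 20 libraries and no 2 libraries share both line and day. The study names WT#1-4 and both Nox4-/- lines in its analyses and does not name WT#20D-17. Its question was which genes depend on Nox4 as embryoid bodies differentiate.

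Library totals lay between 20294968 and 27708023 counts. Levels are given as CPM, the counts scaled to a common library total with trimmed mean (TMM) factors, and a count of 3, the most that a true count of 0 commonly allows, equals 0.1094 to 0.1574 CPM in these libraries. Nox4 was read at 2.62 to 9.01 CPM in WT#20D-17 and at 0.149 to 0.874 CPM in WT#1-4, and it did not exceed 2 counts in any of the 10 Nox4-/- libraries. The WT#20D-17 libraries stood apart from the other 15. At day 0 Nanog, a core pluripotency factor, was at 382.6 CPM in WT#20D-17 and at no more than 0.359 CPM in the other lines, and Zfp42, which marks naive stem cells, was at 41.6 CPM against 0 counts in all 15 other libraries. Of 10 naive pluripotency markers, all were above 3 counts in every WT#20D-17 library and 5 to 7 were in each of the other 15. Nanog and Zfp42 were at or near 0 in 3 of the 4 lines. Pou5f1, one of the factors delivered to those lines, was high there. In the lines it names, the study reports alkaline phosphatase activity and staining for pluripotency markers, among them Oct4 and Sox2. Whether the lines were pluripotent was not tested here. WT#20D-17 also held all 10 endoderm markers above 3 counts on every day, with a summed level of 940 to 3548 CPM against 20.2 to 132.4 CPM in the other libraries. Primitive streak markers summed to 17.8 to 342.1 CPM in WT#20D-17 and 4.01 to 19.8 CPM elsewhere. The summed naive markers overlapped, at 218.6 to 913.9 CPM in WT#20D-17 and 108.7 to 251.6 CPM elsewhere. The summed neural markers went the other way, at 75.7 to 111.5 CPM in WT#20D-17 and 289.6 to 620.1 CPM elsewhere. The number of neural markers above 3 counts did not, at 8 to 9 of 10 in WT#20D-17 and 6 to 8 elsewhere. Fibroblast markers, which feeder cells would carry, summed to 41.6 to 3372 CPM in WT#20D-17, 167.7 to 300.8 CPM in WT#1-4 and 51.4 to 115.8 CPM in the Nox4-/- libraries. How far these cell types account for the differences below was not tested, and in bulk RNA fewer cells of a type cannot be told apart from less RNA per cell.

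FGF ligands are secreted proteins that bind receptor tyrosine kinases together with heparan sulfate on the cell surface. Receptor activation passes through Frs2, Grb2 and Sos to Ras, Raf, Mek and Erk, which switches on genes such as Etv4, Etv5, the Sprouty family and Dusp6, several of which damp the same signal. In the early embryo, Fgf4 comes from naive and primed epiblast cells and drives their exit from the naive state, Fgf5 is the classical marker of the primed epiblast, and Fgf8 is made in the primitive streak. Fgf10 acts in limb and lung mesenchyme, Fgf15 is the mouse counterpart of human FGF19, and Fgf3 acts in the inner ear and the tail.

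Fgf3, Fgf4 and Fgf15 lie next to each other on the forward strand of chromosome 7 (GRCm38), within 62.9 kb, with 2.9 kb between the Fgf3 and Fgf4 gene models and 31.3 kb between Fgf4 and Fgf15. Fgf4 is known to carry a pluripotency enhancer in its own 3′ untranslated region, where SOX2 and OCT4 bind side by side. The motif CTTTGTT, 3 bases of any kind, then ATGCTAAT was searched on both strands in the GENCODE transcripts because it is known from this gene. It was found in 1 of 21877 protein-coding genes, which was Fgf4. The match lies in exon 3 of 3, at chr7:144864388-144864417 on the forward strand, and is shown with the SOX and POU motifs in capitals because Fgf4 is the ligand whose level separated the lines in the direction opposite to the rest.
Fgf4 3′ UTR site: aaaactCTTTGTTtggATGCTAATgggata

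RefSeq (GRCm38.p6) gave a promoter for 7 of the 10 genes. The 250 bases before the start are shown for Fgf3 (chr7:144838362-144838611), Fgf4 (chr7:144861136-144861385) and Fgf5 (chr5:98253934-98254183), all on the forward strand, since Fgf3 and Fgf4 are neighbours that moved in opposite directions in WT#20D-17 and Fgf5 was the ligand with the widest gap between lines. The Fgf3 and Fgf4 windows lie inside the GENCODE gene models, which start at chr7:144838083 and chr7:144847367. The gaps between gene models given above are therefore not distances from these promoters. Capitals mark GC boxes (GGGCGG or CCGCCC) and CCAAT boxes (CCAAT or ATTGG), which did not overlap in these promoters.
Fgf3: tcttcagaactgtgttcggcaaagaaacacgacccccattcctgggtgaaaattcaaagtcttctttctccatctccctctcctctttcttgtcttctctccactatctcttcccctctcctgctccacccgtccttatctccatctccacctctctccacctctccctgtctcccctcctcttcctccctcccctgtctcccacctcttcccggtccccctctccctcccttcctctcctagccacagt
Fgf4: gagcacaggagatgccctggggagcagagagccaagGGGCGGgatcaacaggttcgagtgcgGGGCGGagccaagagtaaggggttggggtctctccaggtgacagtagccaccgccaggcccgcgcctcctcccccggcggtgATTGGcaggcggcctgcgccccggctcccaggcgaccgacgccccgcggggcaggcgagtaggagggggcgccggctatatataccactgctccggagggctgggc
Fgf5: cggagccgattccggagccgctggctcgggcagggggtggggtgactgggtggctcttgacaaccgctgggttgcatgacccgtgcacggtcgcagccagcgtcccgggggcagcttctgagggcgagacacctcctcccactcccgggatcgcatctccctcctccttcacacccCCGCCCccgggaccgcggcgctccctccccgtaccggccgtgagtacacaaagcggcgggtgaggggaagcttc

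The Fgf4 promoter had 2 GC boxes, 1 CCAAT box and 71.2% G and C, and the Fgf5 promoter had 1 GC box and 70.8% G and C. The Fgf3 promoter held neither motif and had 55.2% G and C with 4 CG pairs, against 21 pairs in Fgf4 and 24 in Fgf5. Over all 32851 RefSeq promoters cut in the same way, 32.7% held a GC box, 33.8% held a CCAAT box, and the median was 52.4% G and C with 6 CG pairs. TATAAA, searched on both strands, was in none of the 8 promoter windows of the 7 genes and in 12.4% of all promoters. The study assayed Fgf5 by RT-PCR with the primers below, which match exon 1 (chr5:98254677-98254696) and exon 2 (chr5:98261960-98261979) of the coding sequence and span a product of 121 bases. The reverse primer has no match in the other protein-coding Fgf5 transcript searched, whereas the counts are per gene.
Fgf5 forward: tgtactgcagagtgggcatc
Fgf5 reverse: acaatcccctgagacacagc

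Fgf4 was the 1 ligand transcribed at a high level in all 4 lines at day 0, and its level over the days then parted between WT#20D-17 and the other lines. In WT#20D-17 it stood at 93.5, 20.8, 7.63, 4.44 and 2.26 CPM on days 0, 3, 5, 7 and 14, which is 41.4-fold lower at day 14 than at day 0 (95% exact interval of the 2 counts, 30.6 to 57.4, covering counting error only). In WT#1-4 the values were 145.8, 144.3, 141.9, 112.4 and 58.4 CPM. In Nox4-/- #5-8 they ran from 114.4 to 178.1 CPM and in Nox4-/- #5-23 from 168.2 to 191.6 CPM. All 5 WT#20D-17 values were thus below those of every other line on the same day, and the WT#1-4 value at day 14 was lower than any of the 10 Nox4-/- values. The mean over the 3 other lines was 151.5 ± 20.4 CPM at day 0 and 113.7 ± 54.9 CPM at day 14 (SD, n = 3 lines), so the spread between lines grew with time.

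Fgf5, Fgf8, Fgf10 and Fgf15 were expressed in WT#20D-17 and were at or near 0 in the other lines. Fgf5 in WT#20D-17 was highest at day 0, at 94.9 CPM, and then stood at 70.2, 20.4, 29.6 and 1.63 CPM, a 58.4-fold lower level at day 14 (interval 41.0 to 86.1). In WT#1-4 Fgf5 had 0, 8, 9, 7 and 0 counts, in Nox4-/- #5-8 it had 3 counts on day 5 and 0 otherwise, and in Nox4-/- #5-23 it had 0 counts in all 5 libraries. Against the floor of 3 counts per library, the Fgf5 mean of WT#20D-17 was at least 336.5-fold higher than in Nox4-/- #5-8 and at least 358.2-fold higher than in Nox4-/- #5-23, and it was 235.9-fold higher than the mean of WT#1-4. The groups did not overlap.

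Fgf8 in WT#20D-17 peaked at day 3, with 14.4, 40.3, 9.72, 11.1 and 1.63 CPM over the 5 days. The peak fell on the same day as that of T, the primitive streak factor Brachyury, which was at 3.12, 43.8, 6.36, 3.29 and 0.105 CPM. WT#1-4 had 0, 3, 7, 8 and 3 counts of Fgf8, Nox4-/- #5-8 had 0 counts throughout, and Nox4-/- #5-23 had 2 counts at day 0 and 0 after that. Fgf10 in WT#20D-17 followed a broader rise, at 11.8, 48.4, 37.7, 34.5 and 10.5 CPM, so that its levels at days 0 and 14 differed by a ratio of only 1.12 (interval 0.935 to 1.35). Fgf10 reached 16 counts at day 7 in WT#1-4 and at most 2 counts in any Nox4-/- library.

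Fgf15 was the only one of these 4 ligands with more than 3 counts in the majority of the other 15 libraries (9 of 15). It stood at 36.6, 9.60, 16.8, 26.7 and 1.78 CPM in WT#20D-17 and thus had high values both at day 0 and at day 7. In WT#1-4 it was at 1.33, 0.953, 1.305, 0.455 and 0 CPM, and in the Nox4-/- libraries it lay between 0.0482 and 0.378 CPM. The Fgf15 model shares 761 exon bases with the antisense gene Gm26793, which had up to 45 counts, and the sources used here do not say whether the counting used strand. Fgf3 was the 1 ligand whose highest level in WT#20D-17 was at day 14. Its values there were 1.39, 5.04, 12.9, 7.50 and 17.7 CPM, a 12.7-fold higher level at day 14 than at day 0 (interval 8.91 to 18.6). In the other 15 libraries Fgf3 did not exceed 8 counts, and 3 of 15 were above 3 counts.

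**Figure D1:**
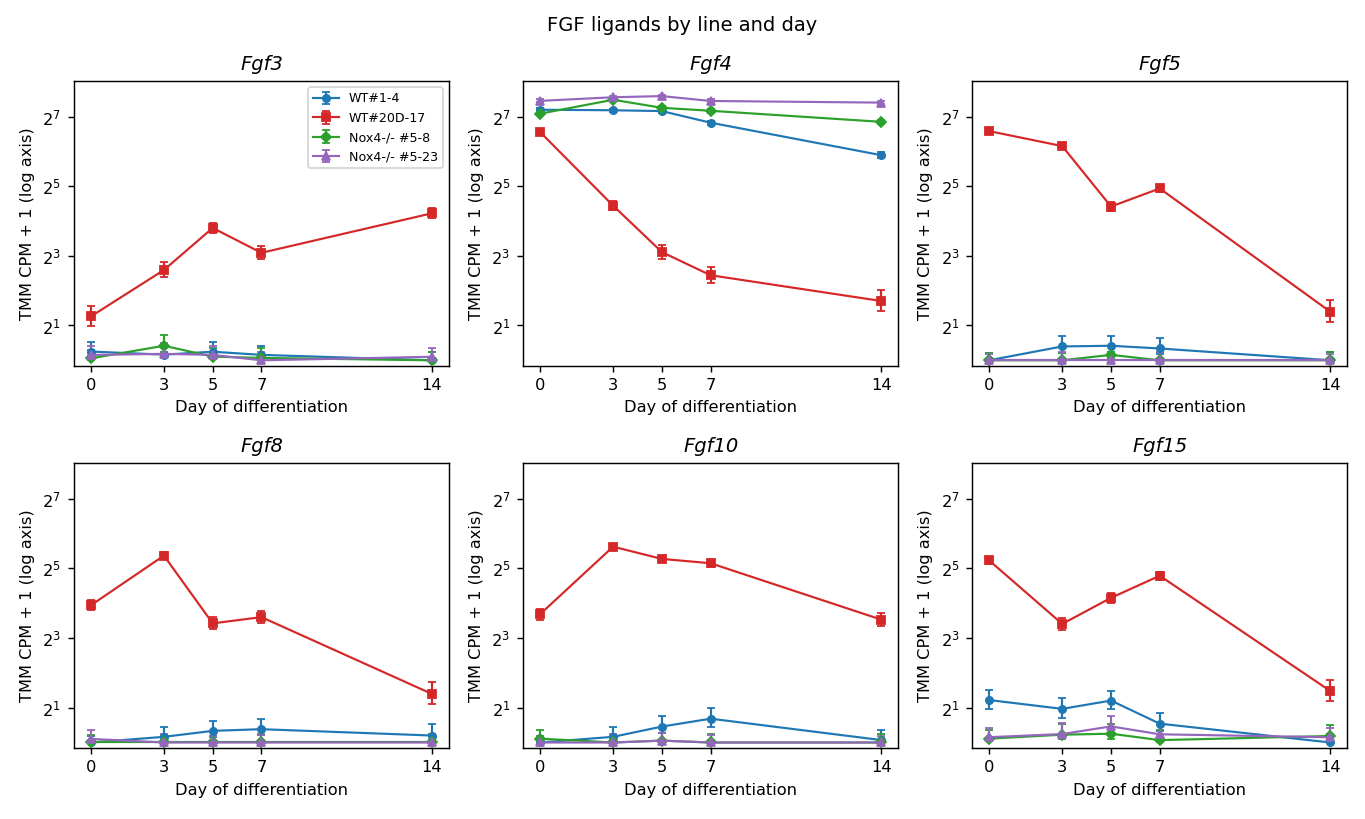
TMM CPM + 1 on a log axis against day of differentiation for the 6 ligands, with 1 point per library, colour for the line and bars for the 95% Wilson interval of the count. Fgf4 falls from 93.5 to 2.26 CPM in WT#20D-17 and is at or above 58.4 CPM in the other lines, and the other 5 ligands are seen almost only in WT#20D-17.

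Among the receptors, Fgfr1 was the 1 read at 64.1 CPM or more in all 20 libraries. It stood at 205.2, 140.1, 149.9, 183.9 and 180.2 CPM in WT#1-4, at 124.0 to 148.7 CPM in Nox4-/- #5-8 and at 129.7 to 215.6 CPM in Nox4-/- #5-23. In WT#20D-17 it was at 146.2, 161.4, 197.7, 112.6 and 64.1 CPM, and the day 14 value was the lowest of the 20. Fgfr1 is the main FGF receptor of the epiblast and of mesoderm.

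Fgfr2, Fgfr3 and Fgfr4 were higher in WT#20D-17 than in each other line on every day, and all 3 stood higher there at day 5 than at day 0. Fgfr2, a receptor of epithelia and of extra-embryonic tissue, was at 15.5, 26.1, 67.7, 76.0 and 33.8 CPM in WT#20D-17. It was at 0.722 to 3.64 CPM in WT#1-4, at 0.958 to 2.33 CPM in Nox4-/- #5-8 and at 0.297 to 0.547 CPM in Nox4-/- #5-23, the last of which did not overlap with any other line. Fgfr2 counts contained fractions in all 20 libraries, and its gene model shares 314 exon bases with Ctbp2 on the same strand, which had up to 5821 counts, so low Fgfr2 values could hold reads assigned between these genes.

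Fgfr3, known as a brake on bone growth and expressed in neural and endodermal tissue, was at 3.94, 17.5, 74.7, 47.9 and 128.2 CPM in WT#20D-17, a 32.6-fold higher level at day 14 than at day 0 (interval 26.6 to 40.4). Its day 0 value was above those of the other lines on that day but below the 5.54 CPM that Nox4-/- #5-8 reached at day 3. In Nox4-/- #5-8 Fgfr3 stood at 1.198, 5.54, 5.31, 2.07 and 1.62 CPM, in WT#1-4 at 2.47, 3.93, 3.28, 3.87 and 2.03 CPM, and in Nox4-/- #5-23 at 0.632, 1.51, 1.36, 0.7103 and 1.203 CPM. Fgfr4, the receptor that pairs with FGF19-type ligands in liver and endoderm, was at 5.94, 8.40, 26.9, 32.1 and 31.3 CPM in WT#20D-17. It had no more than 3 counts in each of the other 15 libraries, and its mean in WT#20D-17 was at least 172.3-fold higher than in WT#1-4 and at least 173.1-fold higher than in Nox4-/- #5-23.

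**Figure D2:**
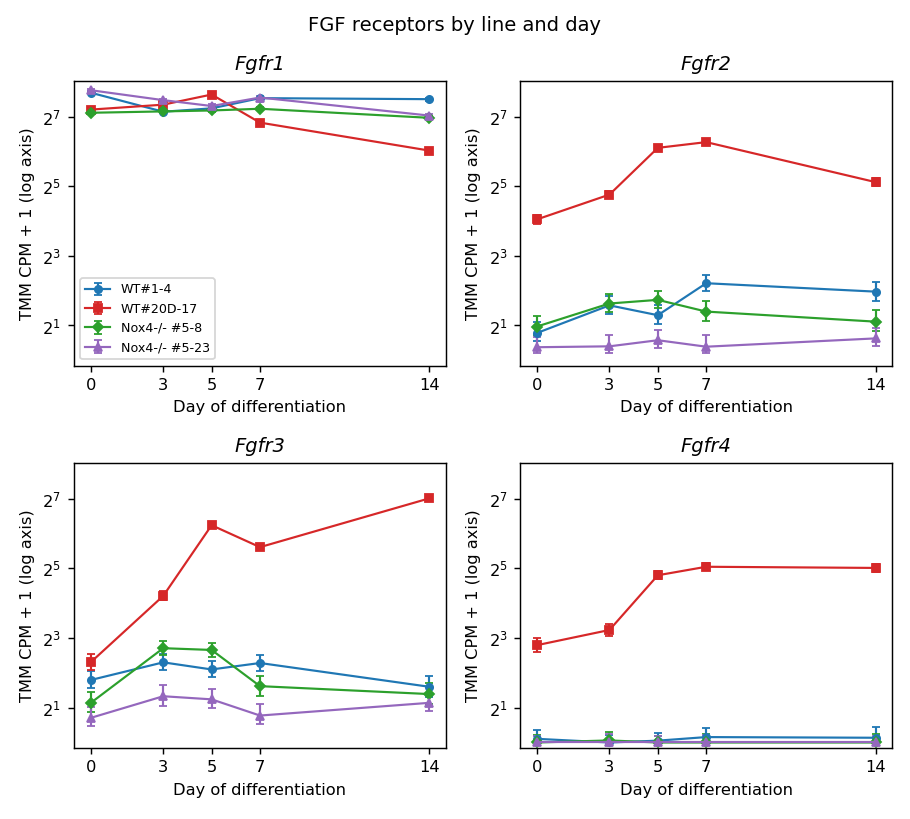
TMM CPM + 1 on a log axis against day for the 4 receptors, drawn as for the ligands, with bars for the 95% Wilson interval. Fgfr1 lies between 64.1 and 215.6 CPM in all libraries, while Fgfr2, Fgfr3 and Fgfr4 climb in WT#20D-17 and stay at or below 5.54 CPM elsewhere.

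Levels can be set side by side between genes once they are divided by exon length (CPM per kb). On that scale Fgf4 made up 98.0% to 99.9% of the 6 ligands' summed level in the 15 libraries other than WT#20D-17, and Fgfr1 made up 93.5% to 99.5% of the 4 receptors' sum. In WT#20D-17 the ligand sum was made of 40.8% Fgf5 and 31.5% Fgf4 at day 0, Fgf8 led at day 3 with 37.2%, and Fgf3 led at day 14 with 58.3%. The Fgfr1 share of the receptor sum in WT#20D-17 was 79.9%, 69.0%, 44.9%, 33.0% and 17.8% over the 5 days. Fgfr3 reached 49.0% and Fgfr4 24.2% at day 14. The ligand sum went from 93.0 to 13.04 CPM per kb in WT#20D-17 between days 0 and 14, and the receptor sum went from 18.5 to 36.5 CPM per kb. These shares are of RNA and of the 10 genes alone.

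**Figure D3:**
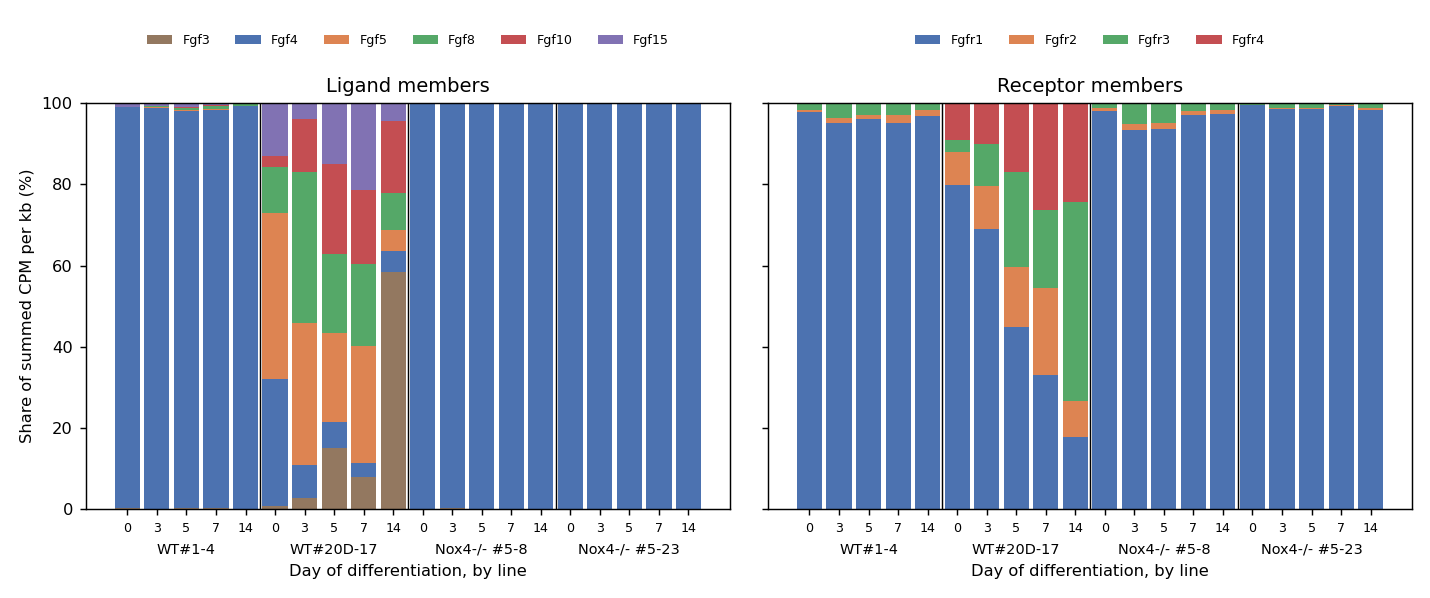
Share of the summed CPM per kb taken by each ligand (left) and each receptor (right), 1 bar per library, ordered by line and day. The bars of 3 lines are almost wholly Fgf4 and Fgfr1, and in WT#20D-17 the Fgfr1 share falls from 79.9% to 17.8%.

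The difference between lines was tested across all genes with edgeR's quasi-likelihood F test with day as a term. The spread there is what is left after line and day. Days of a line thus stood in for replicates of it, although they are not independent. Fgf3, Fgf5, Fgf8, Fgf10 and Fgfr4 passed the filter on low counts only through WT#20D-17, the line in which they are high, so their differences between lines are given as a description. Of the 5 genes that passed the filter without that line, Fgf4, Fgf15, Fgfr2 and Fgfr3 passed an adjusted p of 0.01 and Fgfr1 did not (adjusted p = 0.142, edgeR), where 51.4% of the 17827 genes tested did. The same 4 genes passed in each pair with WT#20D-17, against 39.7% of genes for WT#1-4, 44.1% for Nox4-/- #5-8 and 44.9% for Nox4-/- #5-23. WT#1-4 minus WT#20D-17 was 2.94 ± 0.62 (SE) on the log2 scale for Fgf4 and lay between -8.07 and -3.70 for the 8 genes that were higher in WT#20D-17. The Fgfr1 difference in that pair was 0.43 ± 0.20 (adjusted p = 0.0873, edgeR). Log2 values for genes near 0 counts depend on the prior count. By rank alone, 7 of the 10 genes (Fgf3, Fgf5, Fgf8, Fgf10, Fgf15, Fgfr2 and Fgfr4) were higher in every WT#20D-17 library than in each of the other 15, a pattern held by 6.55% of the 33860 genes with a count, and none was lower in every library, where 4.19% of genes were. The genes were chosen with earlier results of these data known, so this count describes them and is not a test of the family.

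In a fit to the 15 libraries of the other 3 lines Fgfr2 and Fgfr3 passed, 2 of the 5 genes with enough counts to be tested, where 22.6% of 17021 genes did. With all 20 libraries, Fgfr2 was lower in Nox4-/- #5-23 than in WT#1-4 by 2.32 ± 0.38 (adjusted p = 0.00037, edgeR; 11.6% of genes passed) and lower than in Nox4-/- #5-8 by 2.01 ± 0.38 (adjusted p = 0.00372, edgeR; 3.63% of genes passed). The 2 Nox4-/- lines thus differed from each other in Fgfr2. None of the 5 genes that passed the filter without WT#20D-17 passed between WT#1-4 and Nox4-/- #5-8, where 8.21% of genes did. Genes on chromosome 5, which carries Fgf5 and Fgfr3, had a median log2 ratio of Nox4-/- #5-23 over WT#1-4 that was 0.47 to 0.53 above that of all genes on each day, while the medians of chromosomes 7, 8, 13 and 19 lay between -0.04 and 0.06. Fgfr3 was nonetheless lower in Nox4-/- #5-23 than in WT#1-4, by 1.66 ± 0.60 on the log2 scale (adjusted p = 0.0634, edgeR), and by 1.56 ± 0.33 in the fit to the 15 libraries (adjusted p = 0.00321, edgeR). In that fit Fgf4 was higher in Nox4-/- #5-23 than in WT#1-4, with WT#1-4 minus Nox4-/- #5-23 at -0.64 ± 0.16 (adjusted p = 0.00784, edgeR).

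**Figure D4:**
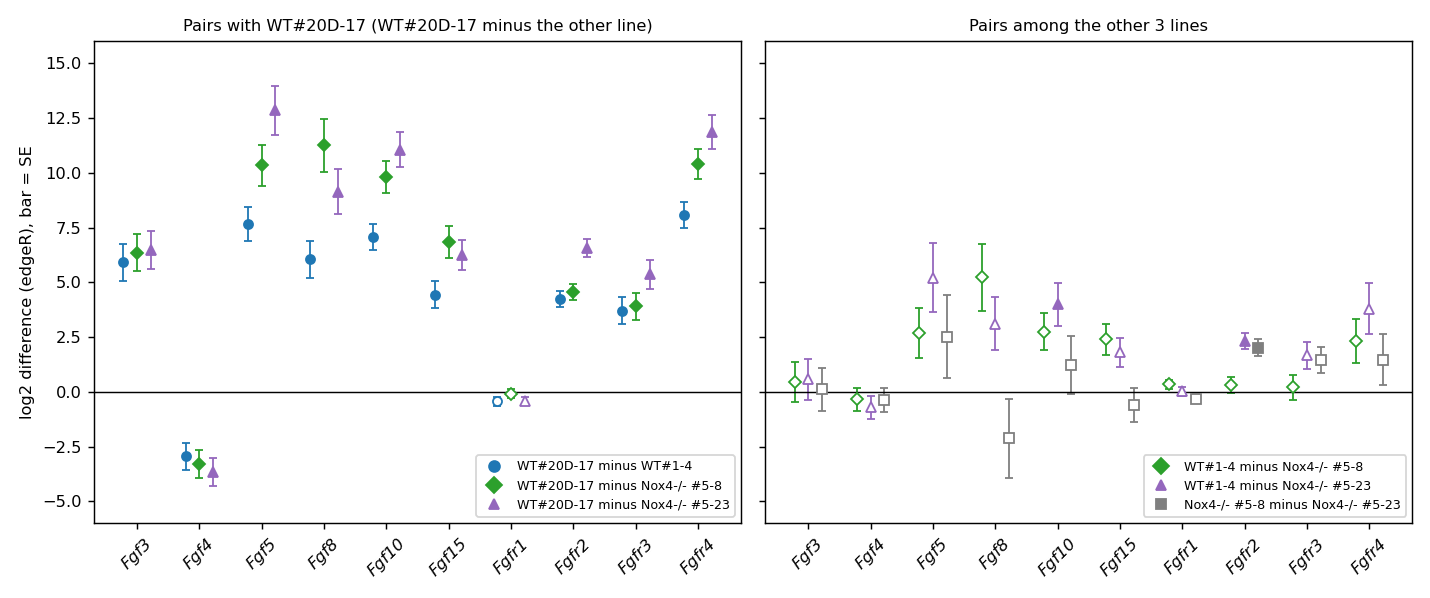
Log2 differences between pairs of lines from edgeR, with SE bars, for WT#20D-17 minus each other line (left) and pairs among the other lines (right). Filled symbols passed an adjusted p of 0.01. Fgf4 is below 0 and 8 genes are above 0 at the left, with Fgfr1 open and near 0, and 3 symbols are filled at the right, of which Fgf10 passed the filter on low counts only through WT#20D-17.

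The comparison of genotypes that follows the study set WT#1-4 against the 10 Nox4-/- libraries with edgeR's exact test. Days of a line were counted as replicates there, although they are not independent samples of a genotype. Fgf8 and Fgf15 passed an adjusted p of 0.01, 2 of the 10 genes, or 20% of them, where 5.62% of 33860 genes passed in either direction. Fgf15 was lower in the Nox4-/- lines by 2.31 on the log2 scale (adjusted p = 0.00208, edgeR) and Fgf8 by 3.71 (adjusted p = 0.00421, edgeR). Both rest on few counts, 0 to 35 per WT#1-4 library for Fgf15 and 0 to 8 for Fgf8, and in neither did the groups separate. Fgf10 had an adjusted p of 0.0116, Fgfr4 of 0.0478 and Fgf5 of 0.0900 (edgeR), all with lower values in the Nox4-/- lines. Fgf4 was higher there by 0.42 (adjusted p = 0.293, edgeR), and Fgfr1 differed by -0.14 (adjusted p = 0.933, edgeR). None of the 10 genes was higher or lower in every WT#1-4 library than in all Nox4-/- libraries, against 2.07% and 1.28% of all genes. Without Nox4-/- #5-8, neither Fgf8 nor Fgf15 passed (adjusted p = 0.112 and 0.110, edgeR) and Fgfr2 and Fgfr3 did (adjusted p = 0.000125 and 0.00282, edgeR). Without Nox4-/- #5-23 none did, and neither did any without day 3, day 5 or day 7. In the same comparison 7 of 12 fibroblast markers and 6 of 8 signal-dependent genes were lower in the Nox4-/- lines, and their part in these values was not tested. With day as a term in a quasi-likelihood test, where 8.04% of genes passed, Fgf15 alone did (adjusted p = 0.00445, edgeR).

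The genotype result depended on which wild type line stood for it. When WT#20D-17 replaced WT#1-4, 9 of the 10 genes passed (25.8% of all genes), with Fgf4 higher by 2.65 in the Nox4-/- lines and the other 8 lower by 4.68 to 11.3 on the log2 scale. With both wild type lines, 8 of 10 passed (12.1% of all genes) and Fgf4 did not (adjusted p = 0.126, edgeR). When counts were summed per line, so that 2 wild type lines met 2 Nox4-/- lines, none of the 10 passed and 0% of all genes did, although 7 of the 10 genes had an unadjusted p under 0.05, as had 6.61% of all genes. None of the 10 genes had both Nox4-/- lines below both wild type lines on each of the 5 days, a pattern of 2.31% of genes, or above them, a pattern of 1.86%. Line and genotype cannot be told apart with 2 lines of each that differ as much as these.

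Time was tested over the 20 libraries with line as a term. None of the 10 genes passed in edgeR's F test, where 18.0% of 17827 genes did, while 4 of 10 had an unadjusted p under 0.05, as had 39.8% of all genes. DESeq2's likelihood ratio test also gave 4 of 10 at an unadjusted p under 0.05, against 42.9% of all genes, and none at an adjusted p of 0.01. The nearest was Fgf5, with day 14 minus day 0 of -5.12 ± 1.21 and an adjusted p of 0.0481 over all days (edgeR). Fgf5 had 0 counts at days 0 and 14 in the other lines, so this value describes WT#20D-17. Fgf3, Fgf5, Fgf8, Fgf10 and Fgfr4 passed the filter on the 20 libraries only through that line. In the 15 libraries without WT#20D-17, 5 genes had enough counts and none passed (23.4% of genes did, and 1 of the 5 genes had an unadjusted p under 0.05, against 45.7% of all genes). In the test of whether the change over days differed with genotype, none of the 10 genes passed and 0.0112% of all genes did, while 2 of 10 had an unadjusted p under 0.05 with edgeR, against 7.7% of all genes, and 2 of 10 with DESeq2, against 11.2%.

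A test of whether the course of 1 line differed from that of the other 3 was added after the values had been seen. For WT#20D-17, Fgf4 (adjusted p = 0.000115, edgeR) and Fgfr3 (adjusted p = 0.00374, edgeR) passed, as did 5.21% of all genes. Fgf4 was lower at day 14 than at day 0 in all 4 lines, by 41.4-fold in WT#20D-17, 2.50-fold in WT#1-4, 1.18-fold in Nox4-/- #5-8 and 1.04-fold in Nox4-/- #5-23. Fgfr1, at an adjusted p of 0.0427 (edgeR), did not pass. In the same test of WT#1-4, Nox4-/- #5-8 and Nox4-/- #5-23, none of the 10 genes and 0% of all genes passed.

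The genes around the ligands and receptors were taken from 5 lists, whose counts stand against the 5.62% of all genes that passed in the genotype comparison with WT#1-4, the 18.0% that passed in the day test and the 5.21% that passed in the test of the WT#20D-17 course. Of 16 other FGF ligands, 2 passed by genotype. Fgf13, an intracellular member of the family that binds sodium channels, was at 15.0 to 46.3 CPM in WT#1-4 and 1.88 to 12.0 CPM in the Nox4-/- libraries, lower by 2.46 on the log2 scale (adjusted p = 2.64e-10, edgeR). Fgf9, a secreted ligand of mesenchyme, was higher in the Nox4-/- lines by 2.50 (adjusted p = 4.751e-07, edgeR). Fgf11, also intracellular, passed in the day test with a rise of 3.04 between days 0 and 14 (adjusted p = 0.00036, edgeR) and reached 54.7, 36.5 and 56.5 CPM at day 14 in the 3 lines in which Fgf5, Fgf8 and Fgf10 were near 0, against 9.81 CPM in WT#20D-17. Fgf17, which is close to Fgf8 in sequence and was singled out after its values were seen, was at 22.7, 19.3, 4.84, 2.40 and 0.157 CPM in WT#20D-17 and had no more than 3 counts elsewhere. By rank, Fgf14 and Fgf22 were also higher in every WT#20D-17 library (6.55% of all genes were), at up to 2.336 and 0.9017 CPM. Fgf1 and Fgf2 were lower in every one (4.19% of all genes were). Fgf1 was at 0.3445 to 1.199 CPM there against 1.744 to 19.2 CPM elsewhere, and Fgf2 at 0.3051 to 0.6823 against 3.457 to 7.189 CPM.

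Of 6 co-receptors and the decoy receptor, Flrt1 passed in the genotype comparison, lower in the Nox4-/- lines by 2.73 (adjusted p = 5.482e-07, edgeR). All 20 heparan sulfate genes were above 3 counts in every library, and 6 passed by genotype, 3 in each direction. The core protein gene Sdc1 was higher in the Nox4-/- lines by 0.86 and the chain-building enzyme gene Ext2 by 0.62, and the glypican genes Gpc1 and Gpc3 were lower by 1.39 and 2.32. Gpc3 was at 124.2 to 1527 CPM in WT#20D-17 and at 0.328 to 14.03 CPM elsewhere. In the day test 2 of 20 passed, Sdc2 and the sulfotransferase gene Hs3st1, with rises of 0.91 and 3.22. Of 19 adaptor and Erk cascade genes, 4 passed by genotype, all lower in the Nox4-/- lines, among them Braf by 0.81, Gab1 by 0.71 and Gab2 by 1.40. By day 2 of 19 passed. Mapk3, which encodes ERK1, rose by 1.73 between days 0 and 14 and Map2k1, which encodes MEK1, by 0.69.

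None of the 12 feedback inhibitors and Etv targets passed by genotype with WT#1-4 or by day in the 20 libraries, and 6 of 12 passed in the test of the WT#20D-17 course. When WT#20D-17 was the wild type line, 8 of 12 passed by genotype, 6 higher and 2 lower in the Nox4-/- lines, where 25.8% of all genes passed, and by day in the other 15 libraries 1 of 12 passed, where 23.4% did. Etv5, Spry4 and Dusp6, singled out after their values were seen, were among the 6 (adjusted p = 0.000187, 0.000349 and 0.000339, edgeR). Etv5 fell from 477.9 CPM at day 0 to 40.2 CPM at day 14 in WT#20D-17 and lay between 362.8 and 559.6 CPM in the other 15 libraries. Spry4 went from 72.01 to 6.25 CPM and Dusp6 from 124.3 to 10.3 CPM in WT#20D-17, against 45.5 to 81.6 and 31.6 to 110.9 CPM elsewhere. Their levels in WT#20D-17 were thus lowest on the day when Fgf4 and Fgf5 were lowest. On that day Fgf3 (17.7 CPM) and Fgfr3 (128.2 CPM) were at their highest in the same line. Whether these levels are linked was not tested.

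Genes of like pattern were sought among all genes with a mean of 10 counts by Pearson's r of log2(CPM + 1) over the 20 libraries, which share lines and fall into WT#20D-17 and the rest. Pou5f1, which encodes OCT4, was the closest to Fgf4 (r = 0.986, and 0.780 in the 15 libraries without WT#20D-17), followed by Fam185a (0.978, and 0.868 without WT#20D-17) and Hprt (0.968, and 0.746), so Fam185a was the closest of these 3 without that line. Pou5f1 was at 1278 to 5760 CPM in the other lines and went from 1136 to 21.2 CPM in WT#20D-17, and its counts do not separate the viral from the cellular gene. For Fgf8 the closest were Zcchc12 (0.993), the streak and node gene Lhx1 (0.986) and Cnn1 (0.985), and for Fgf10 they were Tceal5 (0.996), Dapk2 (0.996) and the Wnt target Axin2 (0.994). Fgf5 was closest to Platr21 (0.994), Zcchc12 (0.993) and Ankrd31 (0.990), Fgf15 to Bcl6b (0.972), Gli2 (0.970) and Gm31805 (0.968), and Fgf3 to Ppp1r16b (0.989), Slc34a2 (0.988) and Golt1a (0.985). Among the receptors, Fgfr4 was closest to Slc34a2 (0.995), Nup62cl (0.993) and Golt1a (0.993), Fgfr2 to Epb41l3 (0.985), Fhl1 (0.983) and B4galnt3 (0.980), and Fgfr3 to Tmem163 (0.975), Igfbp6 (0.969) and Pdgfd (0.967). Fgfr1 had no gene as close, with 0.840 for Bcl7a, 0.787 for Gm44168 and 0.779 for Ppp1r26. The like genes of the 8 members other than Fgf4 and Fgfr1 were themselves at or below 3.15 CPM in the other 15 libraries, so these values mostly restate the gap between WT#20D-17 and the rest.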

How the data were processed

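Poly(A) RNA libraries were made with a stranded TruSeq kit. Per the labels and the study's methods, the authors trimmed reads with fastx_toolkit, mapped them to mm10 with STAR 2.6.0c and deposited RSEM 1.3.1 expected counts per gene for the 20 libraries, not scaled. Whether RSEM used strand is not given in the sources used here. Of the values, 9.92% had decimals, and all were rounded. The labels' treatment text lists a last day of 10 where titles and characteristics give 14, which was used.

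edgeR 4.0.16 was run on the rounded counts with TMM factors in R 4.3.3, and p-values were Benjamini-Hochberg adjusted over all genes tested. The exact test and the quasi-likelihood tests of genotype took the 33860 genes with a count. The F tests for day, lines, genotype by day and the course of a line took the genes left by filterByExpr (17827 in 20 libraries, 17021 in 15). A gene was called at an adjusted p under 0.01. As no line was sampled more than once per day, days of a line stood in for replicates, although they are not independent. In the fits with line and day as terms, p-values measure the spread left after both. In the exact test they measure the spread among the pooled libraries of a genotype. Each SE of a log2 difference was derived from the quasi-likelihood test, as the absolute log2 difference divided by the square root of F. Alternatives were DESeq2 1.42.0, other scaling and filters, other thresholds, day as a block, and leaving out each line or day. Gene models were GENCODE M21 (GRCm38), and 55480 gene IDs had one. Wilson intervals at 95% cover counting error only. The exact genotype test and the F tests for day, lines and genotype by day were tested on simulated counts, drawn independently for each library. The other fits were not. The members and lists were chosen with earlier results of these data known. Named were all 10 members, Nox4, up to 4 genes with the lowest adjusted p per pathway list and test, and the 3 genes of like pattern per member, and others are said to be chosen after seeing values. A gene that this rule names is not reported here. No columns of the table were left unmapped.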

Additional observations from a re-analysis of the deposited data

Results flagged for a closer look

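Dixon's ratio, the gap from the most extreme value to its neighbour over the whole range, was taken 40 times, for the 4 line means of each gene and for the 5 days within a line, and 11 passed the 95% critical value. The critical value is set for about 1 in 20 among independent, normally spread values. These ratios share libraries, many values are near 0 counts, and the ratio was not taken over all genes. The number that passed therefore describes these genes and is not set against chance. WT#20D-17 stood apart from the other 3 line means in 8 genes, at 0.996 for Fgf3, 0.996 for Fgf5, 0.989 for Fgf8, 0.992 for Fgf10, 0.962 for Fgf15, 0.960 for Fgfr2, 0.961 for Fgfr3 and 0.997 for Fgfr4. Within lines, day 0 of Fgf4 in WT#20D-17 stood apart at 0.797, day 3 of Fgf3 in Nox4-/- #5-8 (8 counts) at 0.772 and day 5 of Fgf15 in Nox4-/- #5-23 (10 counts) at 0.725.

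The wild type lines used as reference, WT#1-4 and WT#20D-17, differed in 9 genes, tested as WT#1-4 minus WT#20D-17 on the log2 scale with edgeR. In that pair 39.7% of 17827 genes passed. This contrast holds no Nox4-/- library, so it measures a difference between lines and not an effect of Nox4 loss. Of the 9 genes, Fgf3, Fgf5, Fgf8, Fgf10 and Fgfr4 passed the filter on low counts only through WT#20D-17, so their values are a description. The difference was -8.07 for Fgfr4, -7.64 for Fgf5, -7.07 for Fgf10, -6.04 for Fgf8, -5.91 for Fgf3, -4.44 for Fgf15, -4.24 for Fgfr2, -3.70 for Fgfr3 and 2.94 for Fgf4. The course over days in WT#20D-17 differed from that in the other 3 lines for Fgf4 (adjusted p = 0.000115, edgeR) and Fgfr3 (adjusted p = 0.00374, edgeR). Of all genes, 5.21% passed in that test.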

How the results depend on the processing

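The number of members called by genotype, 2 with WT#1-4, was 0 with filterByExpr, 0 at a threshold of 0.001, 4 at 0.05, 1 with the quasi-likelihood test, 1 with DESeq2, 9 with WT#20D-17 in place, 8 with both wild type lines and 0 with line sums, and leaving out a line or a day gave 0 to 2. Without day 3, 5 or 7 or without Nox4-/- #5-23 it was 0. With day as replicate block it was 1. The deviations of same-day libraries of WT#1-4 and the Nox4-/- lines correlated at -0.0835 to 0.709 over 10 pairs, so days did not pair the libraries throughout. The 0 members called by day became 1 at a threshold of 0.05, namely Fgf5, which passed the filter only through WT#20D-17. The 0 called for genotype by day became 2 without WT#1-4 (0 to 2 over the lines left out). The 9 called between lines (51.4% of all genes) became 2 without WT#20D-17 (22.6% of all genes). That alternative was added after seeing the data and left only 5 members with enough counts. Of the 9, Fgf3, Fgf5, Fgf8, Fgf10 and Fgfr4 passed the filter on low counts only through WT#20D-17, so their calls are a description. The 2 members called for the WT#20D-17 course became 4 with DESeq2. The share of all genes was not taken for these genotype by day and course alternatives, so their counts are a description. Directions turned in 3 genes. The log2 change of Fgfr1 by genotype was 0.1937 when WT#20D-17 replaced WT#1-4, 0.01742 with both wild type lines and 0.06898 with line sums, and it ran from -0.3143 without Nox4-/- #5-23 to 0.03655 without Nox4-/- #5-8. That of Fgfr3 ran from -1.493 without Nox4-/- #5-8 to 0.007405 without Nox4-/- #5-23, and that of Fgf10 by day from -0.5488 without WT#1-4 to 0.07583 without Nox4-/- #5-8, with 0.09967 in the wild type lines alone. The causes were not tested. Members with 3 or fewer counts could not be told from absent at this depth.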
